A study of Mus musculus with 6 samples.

Results

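The sites described here were accessible in both an insulinoma line and a renal line, and differed most between them in the strength of the accessibility signal. Of the 27172 peaks called in β-TC3 cells on chromosomes 1 to 19, 8859 overlapped a peak of RAG cells by at least 1 bp, and these are called shared sites. For each, the log2 ratio of the β-TC3 pileup to the RAG pileup was taken (the pileup is the number of sequenced fragments over the peak's summit), using the largest RAG pileup where several RAG peaks overlapped, as 91 did. The median ratio of the chromosome was then subtracted, because whole chromosomes differed in signal between the lines, and the 300 sites at each end of the ranking, 600 in all, are the subject. Members were thus chosen by their pileups, so ratios and pileups are given as a description, without a test.

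The data were ATAC-seq peak calls from 3 mouse lines, for which the labels give no treatment. β-TC3 (Pax6-HIGH) cells come from an insulinoma of a transgenic mouse whose beta cells expressed the SV40 T antigen from the insulin promoter, RAG (Pax6-OFF) cells from a renal adenocarcinoma of a BALB/c mouse, and MV+ (Pax6-ON) cells, used only as a separate readout, from cultured lens epithelium of a C57BL6 mouse. Line and strain therefore cannot be told apart. Each library started from 50000 nuclei and 11 PCR cycles. Nuclei of MV+ cells were prepared with 0.2% NP40 and those of the other lines with 0.1%, so detergent and line cannot be told apart for MV+ cells. Both replicates of a line were pooled into 1 call, each line is 1 culture lineage, and no value has a replicate error. In a bulk library, a site open in fewer cells, open to a lesser degree or present in fewer copies gives the same lower pileup. The calls rested on 100254099 fragments in β-TC3, 102223606 in RAG and 130955836 in MV+ cells, and the lowest pileup of any peak was 25, 25 and 30 fragments.

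ATAC-seq uses the Tn5 transposase to cut DNA that is free of nucleosomes, mainly at promoters and enhancers. Promoters of widely used genes are open in most cell types and tend to be rich in CG, whereas enhancers lie away from genes, are opened by sequence-specific transcription factors and differ more between tissues. AP-1, a dimer of FOS and JUN proteins, and basic helix-loop-helix (bHLH) factors, which bind the E-box, are enhancer-binding families of wide use, and in beta cells NEUROD1, RFX6, MAFA, NKX2-2, NKX6-1, PDX1 and PAX6 open or use enhancers of the endocrine programme.

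The labels were checked against marker genes. A β-TC3 peak lay within 1 kb of a start of 10 of 20 beta-cell markers (among them *Nkx6-1*, *Neurod1*, *Pax6*, *Isl1*, *Chga* and *Chgb*), against 5 in MV+ and 1 in RAG cells (*Mafa*). None was called at *Ins1*, *Ins2*, *Iapp* or *Pdx1* in β-TC3 cells. A RAG peak lay at 4 of 20 kidney epithelium markers (*Pax2*, *Cdh16*, *Emx2* and *Krt18*), and none at *Pax8*, *Lhx1* or *Umod*, so the renal label of RAG rests on few of its defining markers. Of the same 20, 2 had a β-TC3 peak (*Cdh6* and *Aqp1*) and 1 an MV+ peak (*Emx2*). Fibroblast markers had a peak at 1, 2 and 2 of 12 genes in β-TC3, MV+ and RAG cells, blood markers at 0, 0 and 1 of 10, and lens markers at 1 of 10 in each line. No start was found for *Spi1* among the blood markers or *Sox1* among the lens markers, so neither could have a peak counted. Since a shared site must have a peak in RAG cells too, *Mafa* was the single beta-cell marker among the shared promoters, with pileups of 122 in β-TC3 and 115 in RAG cells.

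Sequences are shown for the sites with the largest ratio at each end that held a listed motif, read from NCBIM37 (the assembly called mm9), 81 bases each, with the motif in capitals. The first set is the promoters of the β-TC3 end. They are *Cep68* (chr11:20149473-20149553), with the CCAAT box bound by NF-Y, *Gphn* (chr12:79327146-79327226), also with a CCAAT box, and *Ccno* (chr13:113777787-113777867), with an E-box.
Cep68: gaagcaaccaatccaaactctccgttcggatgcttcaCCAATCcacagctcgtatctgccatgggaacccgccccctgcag
Gphn: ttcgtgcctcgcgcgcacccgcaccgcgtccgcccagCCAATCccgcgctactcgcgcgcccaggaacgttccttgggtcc
Ccno: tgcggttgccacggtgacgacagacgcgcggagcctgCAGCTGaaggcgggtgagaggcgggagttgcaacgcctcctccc

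The second set is 4 distal sites of the β-TC3 end with the largest ratio among those with an AP-1 motif, shown because AP-1 was among the motifs whose shares differed most between the ends. Their nearest genes are *Pkdcc* (intergenic, chr17:83509466-83509546), *Atp6v1c1* (intergenic, chr15:38640021-38640101), *Rpl21-ps7* (intergenic, chr17:83711923-83712003) and *Nceh1* (intronic, chr3:27108885-27108965).
Pkdcc: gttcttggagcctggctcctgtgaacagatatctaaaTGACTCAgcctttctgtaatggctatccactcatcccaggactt
Atp6v1c1: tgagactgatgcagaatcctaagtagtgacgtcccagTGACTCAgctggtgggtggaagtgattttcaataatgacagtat
Rpl21-ps7: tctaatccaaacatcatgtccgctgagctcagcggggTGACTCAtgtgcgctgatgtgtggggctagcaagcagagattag
Nceh1: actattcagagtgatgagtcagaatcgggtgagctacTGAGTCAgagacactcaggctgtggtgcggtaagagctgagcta

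The last set is from the RAG end: the promoters of *Creb5* (chr6:53523286-53523366, AP-1 motif) and *Glo1* (chr17:30749627-30749707, CCAAT box on the other strand), and the intergenic site nearest to *Samd9l* (chr6:3151546-3151626, ETS motif on the other strand), which stands for the distal sites with very high RAG pileups.
Creb5: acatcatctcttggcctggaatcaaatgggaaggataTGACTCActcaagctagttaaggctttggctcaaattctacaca
Glo1: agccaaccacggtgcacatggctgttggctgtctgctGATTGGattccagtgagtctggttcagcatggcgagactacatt
Samd9l: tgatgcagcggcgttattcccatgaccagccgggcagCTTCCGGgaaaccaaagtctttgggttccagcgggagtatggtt

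The ends differed in where their sites lay. A site counted as a promoter when its β-TC3 summit was within 1 kb of the start of a protein-coding transcript in the GENCODE M1 annotation, and as distal otherwise. Promoters made up 227 of the 300 sites higher in β-TC3 (75.7%, 95% Wilson interval 70.5 to 80.2) and 81 of the 300 sites higher in RAG (27%, 22.3 to 32.3), beside 70.7% (69.8 to 71.7) of all shared sites. Introns held 20% of the sites higher in RAG and 48.7% were intergenic, against 8.0% and 15.7% at the β-TC3 end and 8.18% and 20.3% of all shared sites. Among distal sites alone the RAG end was near the rest, with 27.4% in introns and 66.7% intergenic, against 28% and 69.3% of all distal shared sites. More than 100 kb from any start lay 24% of the RAG end, 3.67% of the β-TC3 end and 6.72% of all shared sites. These intervals, like all intervals given here, cover counting error only, and neighbouring sites are not independent.

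**Figure D1:**
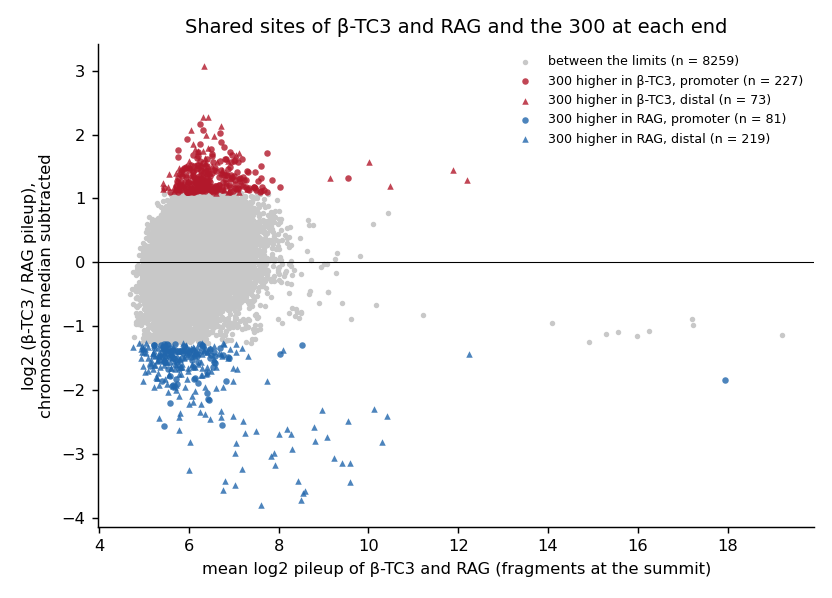
Centred log2 ratio (y axis, β-TC3 over RAG pileup minus the chromosome median) against the mean log2 pileup of both lines (x axis) for the 8859 shared sites, with the 300 at each end in colour, circles for promoters and triangles for distal sites. The ratios of the 227 promoters of the β-TC3 end reach 2.17, whereas those of the 219 distal sites of the RAG end reach -3.80, several of them at high pileup.

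To enter the β-TC3 end a site needed a centred log2 ratio of at least 1.09 (2.13-fold), and to enter the RAG end one of -1.27 or lower (2.41-fold). By the rule, each end holds 3.39% of the shared sites. Ratios of 2-fold or more were found toward β-TC3 at 417 sites (4.71%) and toward RAG at 619 (6.99%). A site without a peak in both lines, where the lowest pileup was 25, cannot enter either count. Before centring, median ratios favoured β-TC3 on every chromosome but 14. There, a 2-fold centred ratio toward β-TC3 needed a larger raw ratio than one toward RAG, except on chromosome 14. The part of these limits in the difference between the counts was not tested. The last members inside the β-TC3 limit were *Styx*, *Pion* and *Gata3*, at 1.09 each, and the first outside were *Mre11a*, *Akap9* and *Zfp648*, also at 1.09. On the RAG side *Sec16b*, *Crisp4* and *Slc39a10* were just inside at -1.27 each, and *Gm15319*, at -1.27, with *Gm6901* and *Rnf144b*, at -1.26 each, just outside. The limits therefore cut through a continuum.

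Median pileups at the β-TC3 end were 159.5 fragments in β-TC3 and 43 in RAG cells, and at the RAG end 43 and 81.5. The stronger line had the wider peak, with median widths of 835 bp in β-TC3 and 421.5 bp in RAG cells at the first end and 470 and 623 bp at the second. The exact 95% interval of the centred ratio, from the pair of fragment counts, lay on 1 side of zero at 3781 of the 8859 shared sites, among them all 600 members, which were chosen by that ratio. Along the ranking, in bins of 300 sites, the promoter share was 75.7% in the first bin and 80.3% to 85.7% in bins 2 to 13. The β-TC3 end, which is the first bin, thus held fewer promoters than those bins. After them the share was lower, down to 31.6% in the last bin. The share of sites in repeated sequence (10 or more copies, as defined later) was 2.0% in the first bin and 27.2% in the last.

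**Figure D2:**
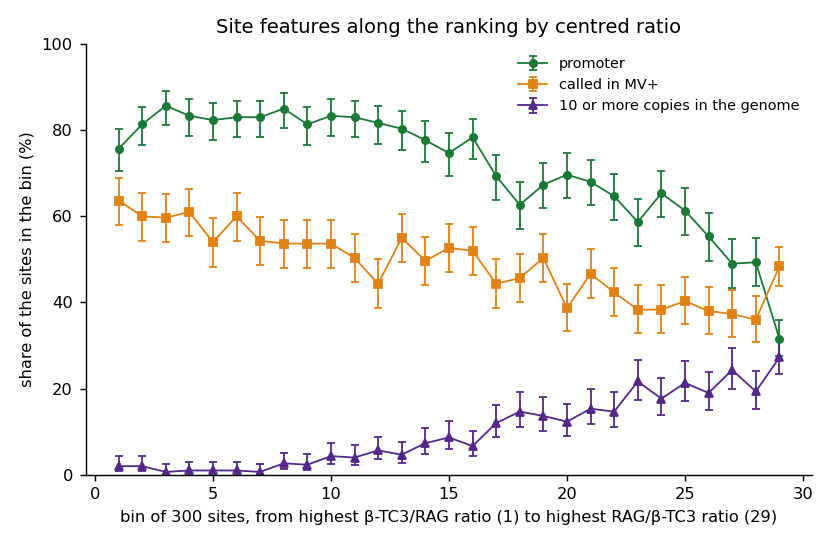
Share of sites (y axis, %, with 95% Wilson intervals) that were promoters, were called in MV+ cells or had 10 or more copies in the genome, in bins of 300 sites ranked by centred ratio from β-TC3 to RAG (x axis; the last bin holds 459). Promoters stand at 75.7% in the first bin, at 80.3% to 85.7% in bins 2 to 13 and at 31.6% in the last. Sites of 10 or more copies go from 2.0% to 27.2%.

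The 12 promoters with the largest ratio toward β-TC3 belong to genes of varied roles. *Cep68*, a centrosome linker protein, had 175 fragments in β-TC3 and 33 in RAG cells, a centred log2 ratio of 2.17 (exact 95% interval 1.62 to 2.75). *Gphn*, which encodes gephyrin, the scaffold of inhibitory synapses and an enzyme of molybdenum cofactor synthesis, had 186 and 34 (2.07). *Ccno*, the cyclin O gene of multiciliated cells, had 218 and 49 (2.03). In RAG cells all 3 had fewer fragments than the median of 56 over the shared sites.

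*Vldlr*, a lipoprotein receptor, had 130 fragments in β-TC3 against 30 in RAG cells (1.93), and *Atxn7l1* had 230 against 48 (1.88). *Efha2*, a mitochondrial calcium-binding protein gene, had 184 against 31 (1.85). *Slc1a4*, a neutral amino acid transporter, had 224 against 54 (1.81), and *Naaa*, a lysosomal lipid amidase, 175 against 46 (1.77). *Chac2*, which acts in glutathione breakdown, had 108 against 27 (1.76), *Ermp1*, an endoplasmic reticulum peptidase, 144 against 38 (1.73), and *Mtr*, methionine synthase, 230 against 64 (1.72). *Sertad2*, a transcriptional coregulator, was the strongest of them in both lines, with 418 against 108 (1.71). In MV+ cells 9 of these 12 were called, with pileups between 67 and 151, and those of *Cep68*, *Vldlr* and *Atxn7l1* were not.

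**Figure D3:**
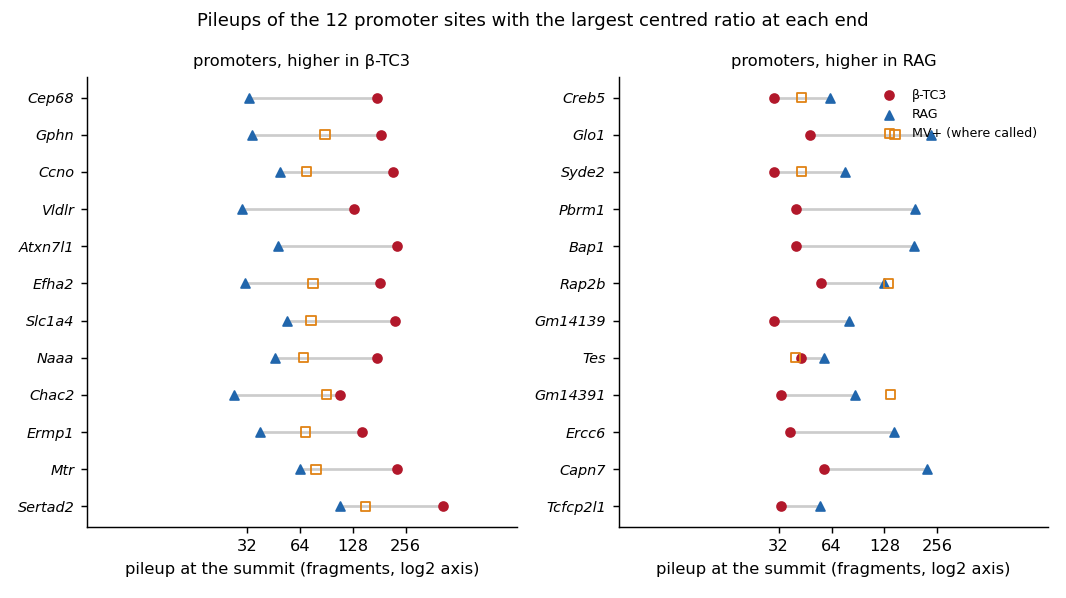
Pileup at the summit (x axis, fragments, log2 scale) in β-TC3 (circles), RAG (triangles) and MV+ cells (open squares, where a peak was called) for the 12 promoter sites with the largest centred ratio at each end. At the β-TC3 end MV+ values lie between the other lines, and at the RAG end the smallest gap is at *Tes*, with 43 fragments in β-TC3 and 58 in RAG cells.

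Among distal sites of the β-TC3 end, the highest ratio belonged to an intergenic site 47947 bp from *Dap*, with 246 fragments in β-TC3 and 27 in RAG cells (3.07). Its sequence occurs 891 times in the reference, and it was not called in MV+ cells. Next came a site 105147 bp from *Pkdcc*, a secreted kinase gene of skeletal development, with 192 against 33 (2.28), and 1 inside *Phf19*, a Polycomb-associated factor, with 227 against 33 (2.28). A site 52814 bp from *En1*, a homeobox gene, had 326 against 34 (2.14). *Actbl2* (142 against 31), *Atp6v1c1* (173 against 40), *Tbl1xr1* (251 against 35) and *Tusc3* (166 against 28) followed at 2.07, 2.00, 1.98 and 1.85. None of these 4 was called in MV+ cells.

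The remaining distal sites of those 12 were *Rpl21-ps7* (174 against 42), *Nceh1* (175 against 28), *Adamts17* (183 against 35) and *Synpo* (178 against 31), with ratios from 1.79 to 1.75. Apart from those of *Dap* and *Tusc3* (2 copies), the 12 sites lay in sequence of 1 copy. The distal members of the β-TC3 end had a median pileup of 152 in β-TC3 and 39 in RAG cells, close to that of its promoters (160 and 45), and a lower median GC content, 55.5% against 67.0%.

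At the RAG end the promoters with the largest ratio included several that were weak in both lines. *Creb5*, a CREB and ATF family factor, had 63 fragments in RAG and 30 in β-TC3 cells, which on chromosome 6, where the median ratio favoured β-TC3 by 1.50, gave a centred ratio of -2.57 (-3.24 to -1.92). *Glo1*, the glyoxalase that removes methylglyoxal, was strong in RAG cells, with 236 against 48 (-2.56). *Syde2* had 76 against 30 (-2.21), and *Rap2b*, a small GTPase, 127 against 56 (-2.05). *Tes*, a focal adhesion gene, had 58 against 43 (-1.93) and *Tcfcp2l1*, a transcription factor of the renal collecting duct and of pluripotent cells, 55 against 33 (-1.86). For *Tes*, also on chromosome 6, the raw log2 ratio was -0.43, so most of its centred ratio came from the subtracted median.

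A second group of these promoters lay side by side on chromosome 14. *Pbrm1*, a subunit of the PBAF remodelling complex, had 191 fragments in RAG and 40 in β-TC3 cells (-2.16), and *Bap1*, a nuclear deubiquitinase, 188 and 40 (-2.14). *Ercc6*, which acts in transcription-coupled repair, had 146 and 37 (-1.89), and *Capn7*, a calpain, 225 and 58 (-1.86). The remaining pair were predicted genes of chromosome 2, *Gm14139* with 81 against 30 (-1.94) and *Gm14391* with 87 against 33 (-1.90). The MV+ pileup of *Gm14391*, a site in sequence of 7.5 copies, was 139 and exceeded that of either line, as did that of *Rap2b* (135). Pileups were not scaled for depth.

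The distal sites at the RAG end held the extreme ratios of the whole comparison. An intergenic site 263163 bp from *Stmn2* had 536 fragments in RAG and 70 in β-TC3 cells, a centred ratio of -3.80 (13.9-fold). Sites near *Kctd16* (1005 against 130), *Samd9l* (782 against 179) and *Vmn1r238* (1022 against 146) had ratios of -3.73, -3.62 and -3.58. An intronic site 9459 bp upstream of the nearest start, that of *Txndc11*, reached 1877 against 318 (-3.44), and 1 near *E030030I06Rik* 967 against 125 (-3.43). The median RAG pileup over all distal members of this end was 81, so these sites stood far above most of it.

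*Olfr161*, an odorant receptor gene, was the nearest gene of 2 of the 12 sites, with 277 against 43 (-3.57) and 328 against 64 (-3.24). *Vmn1r77*, a vomeronasal receptor gene, had 353 against 49 (-3.49), an intronic site of *Akap9* 347 against 36 (-3.43), a site far from *Cntnap2* 119 against 35 (-3.26) and a site near *P4ha2* 673 against 88 (-3.17). These genes are named only as the nearest starts, up to 476054 bp away. Of the 12, 6 were called in MV+ cells, at pileups of 65 to 287.

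The RAG end held more repeated sequence than the β-TC3 end. As a measure of it, the number of exact occurrences in the reference of 32-base stretches from the 200 bp around each summit was counted on both strands, and the median was taken as the copy number of the site. Sites of 10 or more copies made up 75 of the 300 at the RAG end (25%, 20.4 to 30.2) and 6 of the 300 at the β-TC3 end (2.0%, 0.92 to 4.29), against 10.2% of all shared sites. Single-copy sites were 52.0% and 93.7%, against 83.9%. Among distal sites alone it was the β-TC3 end that departed from the rest, since 33.8% of the distal RAG-end sites, 8.22% of the distal β-TC3-end sites and 33.7% of all distal shared sites had 10 or more copies. Of the 156 single-copy sites at the RAG end 45.5% (37.9 to 53.3) were promoters, against 82.8% of all single-copy shared sites, so the RAG end held fewer promoters with repeated sequence left out too. Of the 281 single-copy sites at the β-TC3 end 78.6% (73.5 to 83) were promoters, so that end was not above all such sites.

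Some of the highest pileups lay in sequence shared with mitochondrial DNA or with a locus beside ribosomal RNA sequence. The site at the *Gm10222* promoter on chromosome 1 had 324876 fragments in RAG, 195816 in β-TC3 and 743921 in MV+ cells, and all 186 of its 15-base stretches occur in the mitochondrial chromosome. At a site near *Tyrp1* (6655, 3564 and 16842 fragments) 97 of 186 did. These were 2 of the 6 shared sites with at least 50 such stretches. At a pair of sites nearest to *Pgk2*, in the 7 kb before *AY036118* (chr17:39985048-39985772, NCBIM37), pileups were 2869 and 2253 in RAG against 649 and 550 in β-TC3 cells. In RefSeq, on assembly GRCm38, the neighbour of *AY036118* is *Rn18s-rs5*, a copy of the 18S ribosomal RNA gene. The *Samd9l* site printed above shared 96 of 186 stretches with the 7 kb before and the body of *AY036118*, while its own 32-base stretches occur once in the reference. No member of the β-TC3 end shared 50 or more stretches with either sequence, counting for *AY036118* only sites of under 10 copies. The part of such sequence in the ratios was not tested.

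The ends were also unevenly spread over chromosomes. Median ratios before centring ranged from -0.09 on chromosome 14 to 1.12 on chromosome 1 and 1.50 on chromosome 6. The RAG end drew 58 sites from chromosome 1 and 48 from chromosome 6 (10.2% and 9.23% of their shared sites), and a site of chromosome 6 could enter it with a β-TC3 pileup up to 1.17 times that of RAG. The β-TC3 end drew 45 sites from chromosome 11 (8.24%), 36 from chromosome 4 and 32 from chromosome 13. Chromosomes 1 and 6 gave 7 and 13 sites to that end, where 4.63-fold and 6.01-fold raw ratios were needed.

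**Figure D4:**
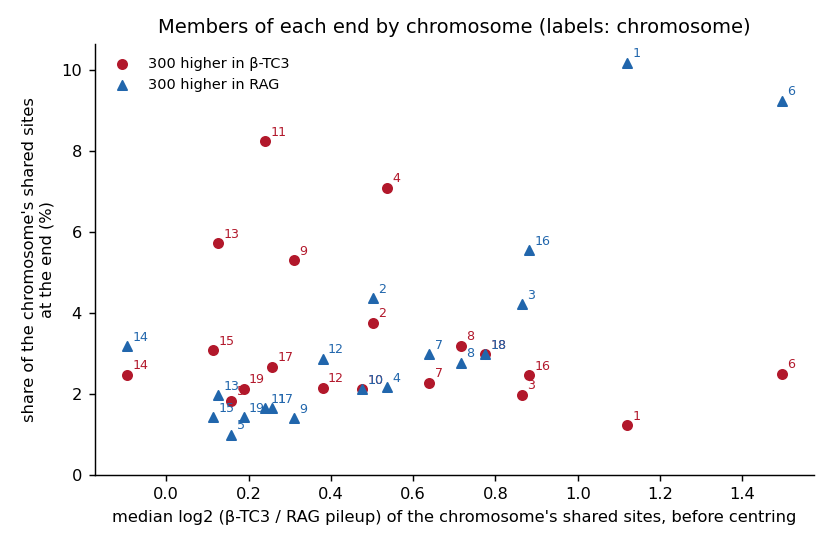
Share of each chromosome's shared sites that fell in either end (y axis, %) against the median log2 ratio of β-TC3 to RAG pileup of that chromosome before centring (x axis), with points labelled by chromosome. Chromosomes 1 and 6, with the highest medians, gave the largest shares to the RAG end, and chromosome 11 gave the largest share (8.24%) to the β-TC3 end.

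Within chromosomes, members came in runs. Grouping members less than 1 Mb apart, 10 runs of at least 4 held 57 of the 300 β-TC3-end sites, and 11 runs held 74 of the RAG end. On chromosome 11, 8 of 11 shared sites between *Actr2* and *Mdh1* and 8 of 10 between *B3gnt2* and *Papolg* were in the β-TC3 end, all of them promoters. In those runs the median local background of the peak caller in β-TC3 cells was 2.47 and 2.05 times its genome-wide value, against 1.00 in RAG cells. With no control, this background was estimated from the same fragments, in a window that includes the peak. Its genome-wide value was taken as the smallest at any peak of the line. On chromosome 14 the reverse was seen from *Tkt* to *Ercc6*, where 9 of 13 shared sites were in the RAG end and the background was 2.83 times its genome-wide value in RAG and 1.00 in β-TC3 cells. In these 3 runs the background thus differed between the lines as well. How much of it came from the peaks themselves, and its part in the ratios, was not tested. Over the whole of the ends, a background of at least 2 times the genome-wide value was found in β-TC3 cells at 48.0% (42.4 to 53.6) of the β-TC3 end against 19.9% of all shared sites, and in RAG cells at 30.0% (25.1 to 35.4) of the RAG end against 6.68%. Members were chosen by pileups that enter this background, so nothing is read from these gaps.

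Other runs at the RAG end lay in gene families and duplicated regions. Near *Slc16a14* and *C130026I21Rik* on chromosome 1, 11 of 18 shared sites were members, and at *Sp110* and *Sp140*, interferon-responsive nuclear body genes, 7 of 10. *Ighv1-73*, a variable segment of the immunoglobulin heavy chain locus, was the nearest gene of 7 members, where the RAG background was 2.69 times its genome-wide value. *Olfr161* and *Gm15319* had 6 members each. On chromosome 7, 10 of 49 shared sites from *Spns1* to *Itgad* were members, among them the promoters of the chromatin genes *Srcap*, *Setd1a* and *Myst1*, at a RAG background of 1.05. In that run the background was thus close to the genome-wide value.

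Since a raised background and a broad shift both enter the ratio, each member was also measured against the median of the shared sites within 10 Mb, and by the deposited fold enrichment over the local background. The ratio of fold enrichments was centred on its chromosome median too. Against its neighbours, 142 members of the β-TC3 end (47.3%) and 263 of the RAG end (87.7%) still had a ratio of 2-fold or more in the same direction. By fold enrichment, 75 (25%) and 91 (30.3%) did. Over all shared sites, 8.79% had a 2-fold ratio in their own direction against neighbours and 2.6% by fold enrichment, but the members were chosen from the same pileups, so nothing is read from the gap. Both measures together were met by 44 sites of the β-TC3 end (14.7%, 11.1 to 19.1) and 82 of the RAG end (27.3%, 22.6 to 32.6). Promoters made up 56.8% (42.2 to 70.3) of the 44 and 29.3% (20.5 to 39.9) of the 82, both below the 70.7% of all shared sites, so on this subset the β-TC3 end was no longer above that share.

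These 44 and 82 sites, picked out after their values were seen, differed both from their neighbours and over their local background. On the β-TC3 side they include the promoters of *Cep68*, *Vldlr*, *Atxn7l1*, *Pik3ip1*, an inhibitor of phosphoinositide 3-kinase (133 fragments in β-TC3 against 35 in RAG cells), *Sdf2l1*, an endoplasmic reticulum chaperone (192 against 40), and *Ogg1*, a DNA repair glycosylase (181 against 27). Distal ones include an intronic site of *Gli2*, a transcription factor of hedgehog signalling (253 against 39), and an intronic site of *Far2* (340 against 40). On the RAG side they include the promoters of *Creb5*, *Syde2*, *Tes*, *Met*, the hepatocyte growth factor receptor (59 in RAG against 52 in β-TC3 cells), *Otx1*, a homeobox factor (79 against 33), and *Rcn1*, a calcium-binding protein of the endoplasmic reticulum (77 against 37). The centred ratio of *Met*, which lies on chromosome 6, was -1.68, most of it from the subtracted median of 1.50. Among distal ones there were sites 223925 bp from *Sox9*, a transcription factor of duct and nephron progenitors (80 against 30), and 60166 bp from *Nfib* (59 against 32).

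*Otx1* shows how much the reference matters. It lies on chromosome 11 between the runs of the β-TC3 end given above, and its ratio toward RAG was -1.50 by the chromosome median and -2.53 against its neighbours. *Gphn*, which had the second largest promoter ratio toward β-TC3, also held a member of the RAG end in an intron 124327 bp downstream, with 767 fragments in RAG and 131 in β-TC3 cells (-2.93).

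By function, 20 gene lists were looked up, each by the number of its shared sites that were members, beside the 3.39% that each end holds by the rule. Replication-dependent histone genes had 6 of 27 sites in the β-TC3 end and 1 in the RAG end, with a median ratio of 0.31 over all 27, where the median over all shared sites is zero. All 6 lie in the large histone cluster of chromosome 13, within 0.208 Mb, and so count as 1 region: *Hist1h4h* (129 against 50), *Hist1h3g* (116 against 42), *Hist1h4f* (90 against 33), *Hist1h3e* (120 against 45), *Hist1h2ae* (105 against 45) and *Hist1h1c* (119 against 50), with ratios of 1.10 to 1.34. Against neighbours within 10 Mb all 6 were below 2-fold, at 0.77 to 1.00. By the copy number defined above, the windows of *Hist1h3g* and *Hist1h2ae* have 1 copy and those of the others 2.5 to 8. Reads may thus be shared between genes at the latter at least.

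Cell cycle and DNA replication genes had 5 of 46 sites in the β-TC3 end and 1 in the RAG end, with a median of 0.27. Of the 5, 3 are inhibitors of cyclin-dependent kinases, which hold cells before DNA synthesis. *Cdkn1b* (p27) had 261 fragments in β-TC3 and 34 in RAG cells (1.44), *Cdkn2b* 165 and 53 (1.10) and *Cdkn2c* 125 and 39 (1.14). Another inhibitor gene, *Cdkn2d*, which is outside the list and was noticed afterwards, had 98 and 33 (1.26). All were at promoters and called in MV+ cells, at pileups of 41 to 74, and against neighbours *Cdkn1b* alone stayed above 2-fold, at 1.54. The others were *Ccne2*, cyclin E2 (150 against 45, but -0.09 by fold enrichment), and a distal site near *Rrm2*, a ribonucleotide reductase subunit (116 against 38). At the RAG end stood *Rbl1*, the retinoblastoma-like p107 (83 in RAG against 33 in β-TC3 cells, -1.83).

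Genes of the secretory granule had 2 of 13 sites in the β-TC3 end and none in the RAG end, with a median of -0.06 over the 13, so the list as a whole did not lean toward β-TC3. They were the promoters of *Cpe*, the carboxypeptidase that trims proinsulin and other prohormones (172 against 46, 1.19), and *Rab3d*, a GTPase of regulated secretion (96 against 35, 1.15). The beta-cell transcription factor list had 1 of 11 at each end, a site 4851 bp from *Sox4* toward β-TC3 (100 against 42, but -0.29 by fold enrichment) and a site 131606 bp from *Prox1* toward RAG (111 against 74). Glucose sensing and channel genes had none of 8 at either end, although their median was 0.61.

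Among kidney genes, tubule transporters and markers had none of 7 sites at either end, and the nephron transcription factors had 1 of 9, which was *Gata3* at the β-TC3 end (169 against 56, 1.09). Of the Hippo pathway, 3 of 19 sites were in the RAG end, 2 nearest to *Vgll4*, a TEAD cofactor (41 against 40 and 46 against 44, both on chromosome 6), and 1 near *Limd1* (1255 against 233, -2.74), while *Nf2*, an upstream activator, was in the β-TC3 end (99 against 32, 1.39). Wnt, Notch and BMP genes had 2 of 30 in the RAG end, an intron site nearest to *Fzd5* (50 against 31) in sequence of 37 copies and an intergenic one near *Axin2* (1615 against 341, -2.48, but 0.06 by fold enrichment).

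Of the remaining lists, AP-1 and immediate early genes had *Klf6* toward β-TC3 (238 against 72, 1.60) and *Mafg* toward RAG (71 against 32, -1.39) among 46 sites. Mesenchymal genes had *Tgfbr1*, a TGF-β receptor (239 against 64, 1.37), of 16, matrix genes *Vcan* (194 against 82, 1.12), of 25, junction genes *Cldn12* (128 against 53, 1.11), of 11, and imprinted genes *Commd1* (108 against 33, 1.47), of 30, each toward β-TC3. Toward RAG were a site in exonic sequence nearest to *Nr2f1* among 30 nuclear receptor sites (220 against 95, -1.34), *Stmn2* among 11 neuronal sites, and a site in exonic sequence nearest to *Hist2h2bb* among the histone sites (44 against 32, -1.32). Neither end held any of the 36 sites of cytosolic ribosomal protein genes, the 16 of CTCF and cohesin genes, the 18 of antigen presentation and interferon genes or the 1 Hox site. With counts this small, none of the lists except the histones and the cell cycle genes had more than 3 members at 1 end.

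The transcription factor motifs at the distal sites differed between the ends. A set of 23 short motifs was searched on both strands of the 200 bp around each β-TC3 summit. The AP-1 motif (TGANTCA) was found in 20 of the 73 distal sites of the β-TC3 end (27.4%, 18.5 to 38.6), in 13 of the 219 of the RAG end (5.94%, 3.5 to 9.89) and in 11.1% (9.92 to 12.3) of all 2593 distal shared sites. The E-box CAGCTG was found in 31.5% (22.0 to 42.9), 7.31% (4.55 to 11.5) and 14.0% (12.7 to 15.3). One or both were held by 34 of the 73 sites (46.6%, 35.6 to 57.9), against 22.3% of all distal sites, and both by 9. The intervals of the ends did not overlap for either motif.

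Repeated sequence and the settings moved these shares. In distal sites of under 10 copies AP-1 was at 29.9% (20.2 to 41.7) at the β-TC3 end, 8.97% (5.31 to 14.7) at the RAG end and 16.3% of all such sites, and the E-box at 34.3%, 8.97% and 17.2%. With an overlap of 50% of both peaks the AP-1 share of the β-TC3 end fell to 16.0% (8.34 to 28.5). The RAG end was then at 5.0% (2.81 to 8.73) and all distal sites at 9.17%, so the intervals of the ends overlapped. With at least 50 fragments in both lines it was 12.5% (5.46 to 26.1), against 4.44% (2.27 to 8.52) at the RAG end and 8.96% of all, with overlapping intervals. Of the 20 AP-1 sites, 15 stayed at 2-fold or more against neighbours within 10 Mb, beside 53 of all 73 distal sites of that end, and 7 were called in MV+ cells, beside 33 of the 73. They include the sites nearest to *Pkdcc*, *Atp6v1c1*, *Rpl21-ps7* and *Nceh1* printed above.

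Motifs of endocrine factors were rarer. The RFX half-site (GTTGCCA) was in 7 of the 73 distal sites of the β-TC3 end (9.59%, 4.72 to 18.5), 2.74% (1.26 to 5.85) of the RAG end and 2.82% (2.25 to 3.53) of all distal sites, and the MAF half-site (TGCTGAC) was in 9.59%, 3.2% and 4.47%. MAF and AP-1 letters can overlap, and 5 of the sites held both. The NEUROD E-box (CAGATGG) was in 6.85%, 3.2% and 3.59%. The intervals of the 2 ends overlapped for all 3 of these motifs. The NKX2 motif (CCACTTNA), the PAX motif (TCACGCNTG) and the FOXA motif (TGTTTAC) were in none of the 73, against 1.66%, 0.27% and 1.54% of all distal sites, all within the 5.0% that the Wilson interval of a count of 0 allows. ETS (CCGGAAG) was in none of the 73 and in 8.6% of all distal sites, but under 10 copies it was in none of 67, which allows up to 5.42%, and in 4.59% of all, so a difference was not detectable outside repeated sequence. The SP and KLF motif (GGGGCGGG) was rare at the RAG end, at 1.83% (0.713 to 4.6), against 6.67% of all.

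**Figure D5:**
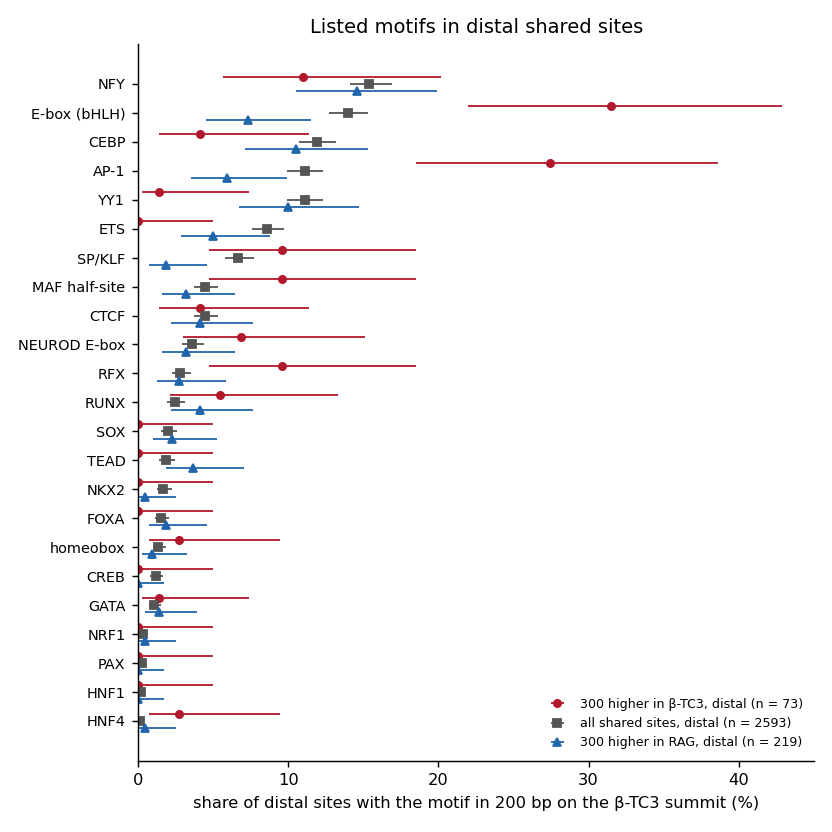
Share of distal shared sites (x axis, %, with 95% Wilson intervals) that held each of the 23 listed motifs in 200 bp on the β-TC3 summit, for the 73 distal sites higher in β-TC3, the 219 higher in RAG and all 2593. AP-1 and the E-box stand at 27.4% and 31.5% at the β-TC3 end and at 5.94% and 7.31% at the RAG end.

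YY1 (AAGATGGC) appeared low in the β-TC3 end, at 1.37% of its distal sites against 10.0% of the RAG end and 11.1% of all, but with sites of 10 or more copies left out it was at 1.49%, 1.38% and 0.988%, so the difference was not seen outside repeated sequence. TEAD (CATTCCA) was in 3.65% of the RAG end, none of the 73 and 1.85% of all distal sites. At promoters the CCAAT box (CCAATC) was in 30.0% (24.4 to 36.2) of the 227 of the β-TC3 end, 13.6% (7.76 to 22.7) of the 81 of the RAG end and 21.6% of all. The intervals of the ends did not overlap for this motif. Closer to each other were the ends in the ETS motif, at 9.25%, 12.3% and 15.3% of all, and in the SP and KLF motif, at 30.8%, 28.4% and 33.8%. No match says only that these letters are absent from the window.

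MV+ cells gave a readout that the rule did not use. A peak was called in MV+ cells at 63.7% (58.1 to 68.9) of the sites higher in β-TC3, 53.0% (47.4 to 58.6) of those higher in RAG and 49.0% (48.0 to 50.1) of all shared sites. Among promoters the shares were 69.6% (63.3 to 75.2), 48.1% (37.6 to 58.9) and 52.0%, and among distal sites 45.2%, 54.8% (48.2 to 61.2) and 41.8% (39.9 to 43.7). So promoters of the β-TC3 end, and distal sites of the RAG end, were called in the lens line more often than shared sites of their kind. Other settings were run for promoters and distal sites together, so they do not check these leans by kind. With the ends chosen by fold enrichment in place of pileup, the share of the β-TC3 end was below the 49.0% of all shared sites, at 40.7%. It was 44.0% with fold enrichment centred within 10 Mb. The share of the RAG end was below 49.0% too with fold enrichment (46.7%, or 48.0% centred within 10 Mb), the genome-wide median (46.0%) and 600 sites (45.8%). With at least 50 fragments in both lines it was 66.0%, against 69.3% of all such shared sites. Neither end's share over both kinds thus stayed above that of all shared sites under every setting. Where called, median MV+ pileups were 75 at the β-TC3 end, 72 at the RAG end and 66 over all shared sites.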

How the data were processed

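ATAC-seq libraries of β-TC3, MV+ and RAG cells (2 replicates each) were trimmed by the authors with Trim Galore 0.4.1 and aligned to mm9 with Bowtie2 2.2.6, and peaks were called with MACS2 2.1.1 at a q-value of 0.05, in paired-end mode without a Tn5 shift, all duplicates in the input kept (a Picard duplicate step preceded calling, and whether it marked or removed duplicates is not given in the sources used here, so pileups and their intervals may count PCR copies), no control, and both replicates pooled. The deposited pileup is a signal, the fragments at the summit without depth scaling. The deposited fold enrichment is its ratio to the local background (pseudocount 1), and the authors' q-values are deposited as −log10 values, used only as an alternative cut.

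Peaks were compared in Python 3.11.15 with pandas 2.3.3, NumPy 2.4.6, SciPy 1.17.1 and pysam 0.24.0, and scripts were tested on simulated data. With 1 call per line no test was run. The members, gene lists and motifs were chosen with earlier results of these data known. Named sites are, in each direction, the 12 promoter and 12 distal sites with the largest ratio, listed genes among the members, genes with at least 3 member sites, and the 3 sites on either side of each limit. Genes of runs of members, and others said to be so, were named after their values were seen. The nearest gene was that of the nearest protein-coding transcript start. Alternatives were other overlaps, q-value cuts, centring, ends, promoter windows and motif windows. Restricting to under 10 copies, and fold enrichment centred on neighbours, were added after seeing the data.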

Additional observations from a re-analysis of the deposited data

How the results depend on the processing

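No paired analysis was possible because both replicates of a line were pooled before peaks were called, and no replicate could be left out for the same reason. The promoter share of the RAG end (27%) stayed between 18.3% and 50.0% in all 16 alternatives, below the share of all shared sites in each. It was 50.0% with fold enrichments, 37.0% with the genome-wide median, 18.3% with the median within 10 Mb, 40% with at least 50 fragments in both lines, 18.7% and 35.3% with 150 and 600 sites, 33.3% with every gene biotype, 38.3% without sites of 10 or more copies and 44.7% with fold enrichments centred within 10 Mb. That of the β-TC3 end (75.7%) was 83.3% with 50% overlap, 81.3% with the genome-wide median, 67.3% within 10 Mb, 86.7% with at least 50 fragments, 70.0% with 150 sites and 65.7% with fold enrichments within 10 Mb, and it was below the share of all shared sites within 10 Mb by either ratio, with 150 sites and without sites of 10 or more copies (76.7% against 78.4%). MV+ calls at the β-TC3 end (63.7%) became 74.0% with 50% overlap (54.0% of all shared sites) and 86.0% with at least 50 fragments (69.3% of all). They became 40.7% with fold enrichments, 52.3% with the level trend removed and 44.0% with fold enrichments within 10 Mb. At the RAG end (53.0%) they became 46.7% with fold enrichments, 46.0% with the genome-wide median, 61.0% with the trend removed and 45.8% with 600 sites. With at least 50 fragments they became 66.0%, below the 69.3% of all shared sites at that setting. The AP-1 share of distal sites stayed higher at the β-TC3 end than at the RAG end in every alternative. At the β-TC3 end it fell to 16.0% with 50% overlap (against 9.17% of all distal sites) and 12.5% with at least 50 fragments (5 of 40 sites, against 8.96% of all). The intervals of the ends overlapped at both settings. At the RAG end it was 11.0% with a 500 bp window, against 17.3% of all. Of the 300 sites at the β-TC3 end, 162, 128, 113, 156, 104 and 121 were chosen again with 50% overlap, fold enrichments, the genome-wide median, the median within 10 Mb, at least 50 fragments and fold enrichments within 10 Mb. Of the RAG end 140, 159, 116 and 139 were chosen again with fold enrichments, the genome-wide median, at least 50 fragments and fold enrichments within 10 Mb. The causes were not tested. Sites under 25 fragments were not called in either line, so sites closed in 1 line are not in the comparison.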
